A study of Oryctolagus cuniculus with 6 samples.

Results

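Kinetochore genes were taken as those annotated in the deposited table with the Gene Ontology (GO) term for the kinetochore of condensed chromosomes, leaving out the kinesins named KIF. They numbered 99 of 22190 genes, of which 73 had a gene symbol and 26 only an identifier that begins with LOC. The term also covers proteins with other duties in the cell, such as nuclear pore proteins, dynactin subunits and RNA-binding proteins, and only 54 of the 99 genes also carried the term for cell division. The kinetochore is the protein assembly that forms on the centromere of each chromosome in mitosis and holds it to the microtubules of the spindle. Its inner layer, the constitutive centromere-associated network (CCAN), sits on nucleosomes that contain CENP-A. Its outer layer, the KMN network, binds microtubules, and the spindle assembly checkpoint delays anaphase until the chromosomes are attached. Many genes of these proteins are transcribed mainly in dividing cells, and in the limbal epithelium, from which the corneal epithelium is renewed, they accompany the division of stem and transit-amplifying cells.

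RNA-seq was performed on primary limbal stem cells (LSCs) grown out of rabbit limbal explants, with 3 libraries from fresh tissue (fresh group) and 3 from preconditioned tissue (preconditioned group). Corneas to be preconditioned were frozen for 7 days in liquid nitrogen, the inflammatory cytokine IL-1β having been added to their cryomedium at 10 ng/mL. They were then thawed, and the cells of both groups grew from explants in keratinocyte medium. Freezing and IL-1β came together, so that their effects cannot be told apart, and the sources used here do not name the rabbits' strain, age or number or say which animal gave which library. If libraries of a group share animals or cultures, the p values below measure a spread that may be partly technical.

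The libraries held 31952352 to 34327534 counts on genes, and the kinetochore genes took 104713 to 159989 of them. Levels are given as CPM, a count relative to its library's total after TMM scaling, a factor of 1.06 to 1.07 for fresh and 0.914 to 0.965 for preconditioned libraries. Of 13 epithelial marker symbols, 9 were found in the table. Among them, KRT5, a basal keratin, was at 7337 to 11740.2 CPM, and TP63, the transcription factor of limbal progenitors, was at 246, 226 and 239 CPM in the fresh group and 183, 122 and 112 in the preconditioned group (log2 fold change −0.77, SE 0.19, adjusted p = 0.059). EPCAM, an adhesion molecule of epithelia, lay the other way at 91.8, 79.4 and 77.5 CPM against 102, 126 and 125 (log2 fold change 0.50, SE 0.13, adjusted p = 0.060), as did PAX6, a transcription factor of the eye, with overlapping groups (log2 fold change 0.81, SE 0.28, adjusted p = 0.11). Over the 9 markers 5 values were negative and 4 positive, and none passed edgeR's adjusted threshold. KRT3, a keratin of differentiated corneal epithelium, was at 239 to 2655 CPM, so that the libraries held progenitor and differentiation markers together. Markers of other cells were present too. The summed CPM of 12 stromal fibroblast markers was 547 to 1196 in fresh and 1335 to 2367 in preconditioned libraries. COL1A1 rose (log2 fold change 2.66, SE 0.28, adjusted p = 0.015, edgeR), and without it the sums were 491 to 1087 in fresh and 831 to 1674 in preconditioned libraries, so that the groups overlapped, as they did for 10 of the 12 genes singly. For the 8 immune markers the sums were 103 to 136 and 125 to 322, most of it CD68, with CD3E and CD4 at most at 0.064 CPM. Melanocyte markers summed to at most 6.4 CPM with TYR at most at 0.0304, endothelial markers to at most 13 CPM with TEK at most at 0.032, and of the conjunctival goblet cell markers SPDEF reached at most 0.383 CPM, whereas KRT7 was at 388 to 1199.6. The part of these cells in the results below was not tested. In such bulk libraries, fewer dividing cells and less mitotic RNA per cell cannot be told apart. By flow cytometry, the paper reported a smaller G0/G1 fraction and larger S and G2/M fractions in preconditioned than in control LSCs. The sources do not say whether those cells and the libraries came from the same cultures.

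Most kinetochore genes had lower levels in the preconditioned group. Of the 99 genes, 91 passed edgeR's filter on low counts, and 72 of these had a negative log2 fold change (preconditioned against fresh) while 19 had a positive one. The median over the 91 genes was −0.41, beside 0.01 over all 15029 genes tested, and the values ran from −2.15 to 1.04. Genes were called when the Benjamini-Hochberg adjusted p of edgeR's quasi-likelihood test over all genes was at most 0.05 and the absolute log2 fold change at least 1. By this rule 4 kinetochore genes (4.4%) were lower, LOC100345160, KNSTRN, CENPM and ERCC6L, where 1.2% of all tested genes were. None was called higher, where 1.08% of all genes were. DESeq2 made more calls over all genes (2.87% lower and 2.49% higher of 22190), and among its 99 kinetochore genes 13 were lower and 1, DYNLT3, was higher. Without the fold change cutoff, 6 genes were lower (6.59%, against 2.2% of all genes) and 1 was higher (1.1%, against 2.88%). The additional genes were NDE1 and PHF2, which were lower, and DCTN3, which was higher. At an unadjusted p of at most 0.05 there were 31 lower and 3 higher, where 15.1% and 15.5% of all tested genes were. The 3 preconditioned libraries lay wholly below the 3 fresh ones for 33 genes (36.3%) and wholly above them for 5 (5.49%), where 18.8% and 17.9% of all tested genes did so.

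One library stood between the groups. For each gene, the log2 ratio of each library's CPM (plus 0.5) to the fresh mean was taken, and its median over the kinetochore genes was 0.11, −0.06 and −0.04 in the fresh libraries. In the preconditioned libraries it was −0.15, −0.54 and −0.51, so that preconditioned replicate 1 lay nearest to the fresh group. That library was the preconditioned one nearest to the fresh mean for 59 of the 91 genes, which is 64.8%, while over the whole table of tested genes it was so for 52.2%. The summed CPM of the kinetochore genes was 4637, 4159 and 4289 in the fresh libraries, and it was 4259, 3576 and 3448 in the preconditioned ones. The highest preconditioned sum was therefore above the lowest fresh sum. Without preconditioned replicate 1, 25 kinetochore genes were called lower and 1, DYNLT3, higher, where 6.01% and 3.98% of all tested genes were called, and the median log2 fold change was −0.56. When fresh replicate 1, 2 or 3 or preconditioned replicate 2 or 3 was left out in turn, edgeR called 0 kinetochore genes, with 20 to 27 at an unadjusted p of at most 0.05, and the calls over all genes went from 344 to between 14 and 72. The median stayed between −0.32 and −0.45 in these 5 fits.

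**Figure D1:**
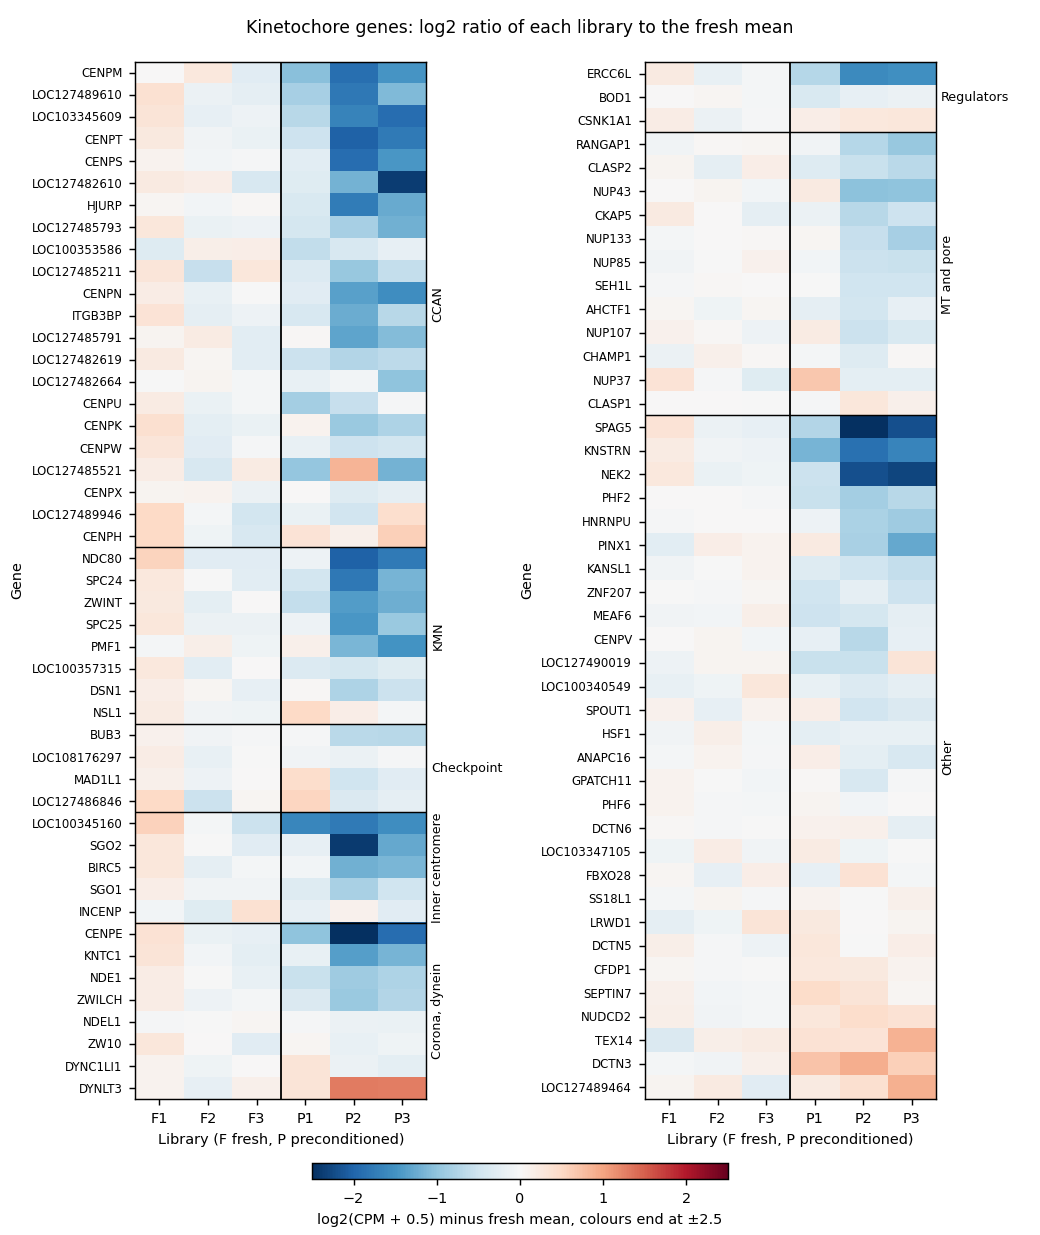
Log2 ratio of each library's CPM (plus 0.5) to the fresh mean for the 91 tested kinetochore genes (rows, by role), with fresh libraries F1 to F3 and preconditioned libraries P1 to P3 in columns. Blue is lower and red higher than the fresh mean; the CCAN and KMN rows are mostly blue in P2 and P3, with paler colours in P1.

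All 22 genes of the inner kinetochore were tested, 21 had a negative log2 fold change, and the median was −0.94. CENPM, a CCAN subunit, was the one gene past both cutoffs. It stood at 12.1, 14.5 and 9.76 CPM in the fresh group and 5.54, 2.88 and 3.98 in the preconditioned group, 2.93-fold lower in the fit (log2 fold change −1.55, SE 0.30, adjusted p = 0.040, edgeR). The groups did not overlap. Of the 22 genes, 11 lay wholly below the fresh libraries, and the unadjusted p was 0.05 or less for 10, all lower. Of all tested genes, 18.8% lay wholly below and 15.1% were lower at that p.
CENPT, which links the CCAN to the NDC80 complex, had 7.94, 6.24 and 5.85 CPM against 4.47, 1.25 and 1.58 (log2 fold change −1.45, SE 0.50, adjusted p = 0.11). HJURP, the chaperone that loads CENP-A, had 8.84, 8.07 and 8.67 CPM against 6.39, 2.17 and 3.26 (log2 fold change −1.11, SE 0.39, adjusted p = 0.11). CENPN, which binds the CENP-A nucleosome, had 23, 17.6 and 20.02 against 16.3, 7.58 and 6.52 (log2 fold change −0.99, SE 0.35, adjusted p = 0.12). For these 3 genes the groups did not overlap, replicate 1 was the highest preconditioned library, and none passed edgeR's adjusted threshold, although DESeq2 gave all 3 an adjusted p of at most 0.05 and called CENPT and HJURP. CENPH, a CCAN subunit that works beside CENPM, was the one inner gene with a positive value, at 22.7, 14.9 and 12.1 CPM against 20.5, 17.4 and 24.5 (log2 fold change 0.33, SE 0.26, adjusted p = 0.42), and its groups overlapped. LOC100353586 (described as centromere protein K-like), had 0.337 FPKM over the 6 libraries and a log2 fold change of −1.05 (SE 0.57, adjusted p = 0.26).

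Rows with a shared description, called copies here, bear on this count, and their sequences were not compared. Of the 22 inner genes, 11 share the description centromere protein U (CENPU, a CCAN subunit) or centromere protein U-like. If such rows are near-identical in sequence, their reads may have been split or dropped in counting, so each of these 11 rows is uncertain on its own. Their log2 fold changes ran from −1.5 (LOC127489610) to −0.10 (LOC127489946), and none passed edgeR's adjusted threshold. DESeq2 called 2 of them lower, LOC103345609 and LOC127489610, and gave LOC127482619 an adjusted p of 0.022. With a 12th row of this description that lacked the GO term, the copies summed to 62.6, 51.0 and 42.8 CPM in the fresh group and 36.6, 23.9 and 21.3 in the preconditioned group. The groups did not overlap in this sum, and the log2 fold change of the summed counts was −0.93 (SE 0.24, adjusted p = 0.061). Summing each such family of copies, an alternative chosen after seeing the data, left 75 tested kinetochore genes with a median of −0.40, 56 of them below 0.

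**Figure D2:**
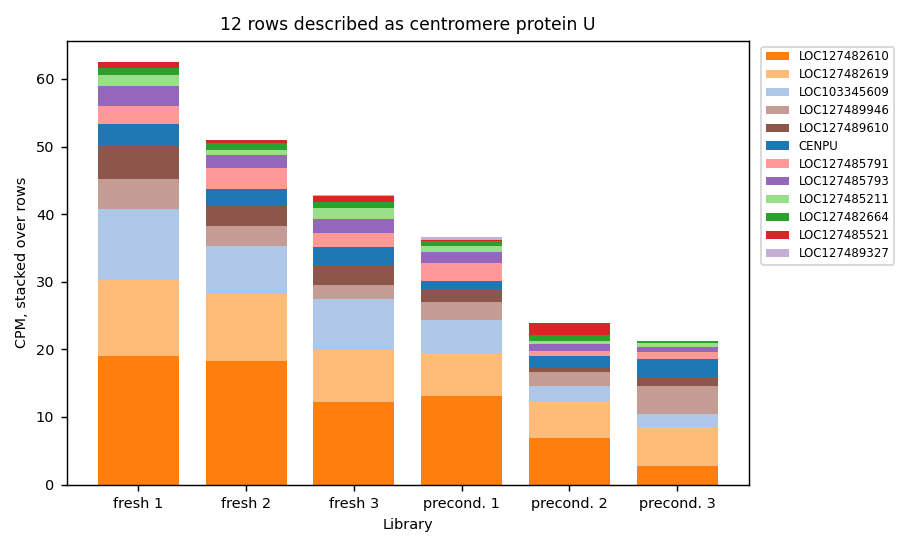
CPM of the 12 rows described as centromere protein U, stacked for each library. The stacks reach 62.6, 51.0 and 42.8 in the fresh libraries and 36.6, 23.9 and 21.3 in the preconditioned libraries, and LOC127482610 makes up 30.5, 35.9 and 28.5% of the fresh and 35.7, 28.6 and 12.8% of the preconditioned stacks.

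In the outer kinetochore, 8 genes of the KMN network were tested, 7 had a negative log2 fold change, and the median was −0.73. None passed the adjusted threshold in edgeR, 2 had an unadjusted p of 0.05 or less, and DESeq2 called both, SPC24 and ZWINT. At that unadjusted p, 15.1% of all tested genes were lower in edgeR. SPC24, the subunit of the NDC80 complex that joins it to the inner parts, was at 15.3, 12.6 and 10.4 CPM in the fresh group and 9.13, 3.29 and 5.37 in the preconditioned group (log2 fold change −1.11, SE 0.37, adjusted p = 0.10). ZWINT, a partner of the scaffold KNL1, had 15.2, 10.6 and 12.7 CPM against 8.28, 4.51 and 5.14 (log2 fold change −1.10, SE 0.28, adjusted p = 0.061). The groups of both genes were apart, with preconditioned replicate 1 the closest to the fresh range. NDC80, the microtubule-binding subunit, had 28.4, 15.7 and 15.8 CPM in the fresh group and 17.4, 4.32 and 5.27 in the preconditioned group (log2 fold change −1.15, SE 0.56, adjusted p = 0.22). Its preconditioned replicate 1 lay inside the fresh range, and without that library the value was −2.07, adjusted p = 0.0095. SPC25 showed the same order, with 24.5, 18 and 18.1 CPM against 18.2, 6.97 and 10.2 (log2 fold change −0.77, SE 0.35, adjusted p = 0.18). A copy of it, LOC100357315, held 5.97 to 13.1% of the family's counts, and the summed value was −0.75 (SE 0.33, adjusted p = 0.17). NUF2, the remaining subunit of the NDC80 complex, lacked the GO term and had 59.5, 32.5 and 42.5 CPM against 40.4, 14.1 and 16.4 (log2 fold change −0.92, SE 0.43, adjusted p = 0.20). NSL1, a subunit of the MIS12 complex, was the one KMN gene with a positive value, 0.22 (SE 0.19, adjusted p = 0.47). Without preconditioned replicate 1, edgeR called 5 KMN genes lower, NDC80, SPC24, SPC25, PMF1 and ZWINT. In that fit 6.01% of all tested genes were called lower.

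**Figure D3:**
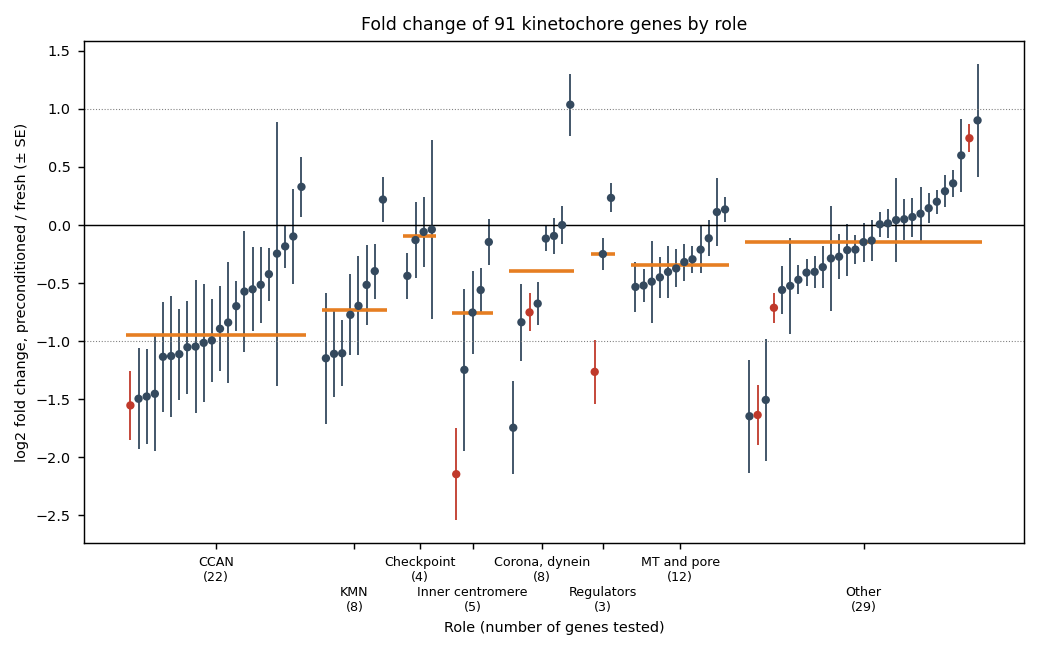
Log2 fold change (± SE) of each of the 91 tested kinetochore genes, sorted within its role, with orange lines at the role medians and dotted lines at the fold change cutoffs of −1 and 1. Red marks the 7 genes past the adjusted threshold of edgeR. The medians run from −0.94 (CCAN) to −0.09 (checkpoint).

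At the inner centromere, all 5 genes had a negative log2 fold change, with a median of −0.75. LOC100345160, described as shugoshin 2, had the most negative value of all tested kinetochore genes. Shugoshins protect the cohesin of the centromere until anaphase. Its CPM was 6.43, 3.99 and 2.68 in the fresh group and 1.0, 0.863 and 1.09 in the preconditioned group, 4.42-fold lower in the fit (log2 fold change −2.15, SE 0.40, adjusted p = 0.039, edgeR). A second row, SGO2, had 4.93, 3.97 and 3.2 against 3.38, 0.352 and 1.35 (log2 fold change −1.25, SE 0.70, adjusted p = 0.27). The 2 rows may share reads, and when their counts were summed the value was −1.65 (SE 0.49, adjusted p = 0.080), so that the call was lost. The summed CPM, at 11.4, 7.96 and 5.88 against 4.38, 1.22 and 2.44, still did not overlap between the groups. SGO1, the other shugoshin, had 19.7, 16.5 and 16.4 CPM against 13.8, 9.75 and 12.2 (log2 fold change −0.56, SE 0.19, adjusted p = 0.099). BIRC5 (survivin), a subunit of the chromosomal passenger complex, had 15.3, 10.6 and 12.1 CPM against 12, 5.18 and 5.4 (log2 fold change −0.75, SE 0.36, adjusted p = 0.20), and its groups overlapped. INCENP, the scaffold of that complex, had 89.97, 76.7 and 123 against 81.6, 102 and 78.3 (log2 fold change −0.15, SE 0.20, adjusted p = 0.65), and its small difference turned to 0.066 without fresh replicate 3.
The complex's kinase AURKB and its subunit CDCA8 did not carry the GO term. AURKB was at 17.9, 11.8 and 15.3 CPM in the fresh group and 9.92, 2.97 and 3.52 in the preconditioned group (log2 fold change −1.45, SE 0.47, adjusted p = 0.097), and CDCA8 had a value of −1.62 (SE 0.55, adjusted p = 0.11). Both were below the fresh range in each preconditioned library, without passing edgeR's adjusted threshold. AURKC, a related kinase that also lacked the term, had overlapping groups and a value of −0.66 (SE 0.41, adjusted p = 0.31).

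Among the corona and dynein genes, 7 of 8 tested genes had a negative log2 fold change, the median was −0.40, and the extremes lay on both sides. CENPE, a kinetochore motor that brings chromosomes to the spindle equator, was at 42.5, 29.3 and 28.5 CPM in the fresh group and 16.1, 5.44 and 8.36 in the preconditioned group (log2 fold change −1.75, SE 0.40, adjusted p = 0.053). Its groups did not overlap. It missed edgeR's adjusted threshold, while DESeq2 called it lower with all libraries (adjusted p = 0.00027), as did limma on log2(FPKM + 1), and edgeR did so without preconditioned replicate 1 (−2.29, adjusted p = 0.0054). NDE1, a regulator of dynein, was at 30.1, 26.3 and 23.1 CPM in the fresh group and 17.9, 14 and 15.3 in the preconditioned group and fell by less than the fold change cutoff (log2 fold change −0.75, SE 0.16, adjusted p = 0.048, edgeR). KNTC1 and ZWILCH, subunits of the RZZ complex of the corona, had values of −0.84 (SE 0.33, adjusted p = 0.15) and −0.68 (SE 0.19, adjusted p = 0.069). ZW10, the third subunit of that complex, had 86.7, 71.6 and 59 CPM against 74, 63.2 and 66.3, with overlapping groups and a log2 fold change of −0.09 (SE 0.16, adjusted p = 0.72). DYNLT3, a light chain of dynein, had a positive value. It was at 26.5, 21.6 and 27.2 CPM in the fresh group and 31.4, 61.9 and 61.1 in the preconditioned group (log2 fold change 1.04, SE 0.27, adjusted p = 0.061), the most positive value of all tested kinetochore genes. Replicate 1 was again the closest to the fresh libraries, and without it DYNLT3 was called higher (1.28, adjusted p = 0.0040), as it was by DESeq2 with all libraries (adjusted p = 0.0049).

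The 4 tested checkpoint genes with the GO term, BUB3, MAD1L1 and a pair of MAD1 copies, had a median of −0.09, and all 4 had overlapping groups. That median moved with single libraries and was −0.57 without preconditioned replicate 1, 0.0062 without fresh replicate 1 and 0.026 without preconditioned replicate 2. BUB3, which recruits the checkpoint kinases, had 189, 166 and 171 CPM in the fresh group and 172, 109 and 107 in the preconditioned group (log2 fold change −0.44, SE 0.20, adjusted p = 0.18), and without preconditioned replicate 1 its value was −0.71, adjusted p = 0.0076. The 3 MAD1 rows together had a value of −0.07 (SE 0.28, adjusted p = 0.89). With all libraries, none of these 4 genes had an unadjusted p of at most 0.05 in edgeR, and DESeq2 gave none an adjusted p of at most 0.05. A further 6 checkpoint genes lacked the GO term, the kinases among them. Of these, 5 had an unadjusted p of at most 0.05, all with negative values, where 15.1% of all tested genes were lower. BUB1 had 60.6, 39.2 and 37.3 CPM in the fresh group and 28.5, 7.1 and 8.26 in the preconditioned group (log2 fold change −1.64, SE 0.56, adjusted p = 0.11). BUB1B had 58.8, 42.6 and 39.9 against 27.1, 8.57 and 11 (log2 fold change −1.60, SE 0.44, adjusted p = 0.072), and TTK had a value of −1.19 (SE 0.37, adjusted p = 0.091). MAD2L1, which is part of the checkpoint's inhibitory complex, and TRIP13, an ATPase that takes that complex apart, had values of −0.83 (SE 0.23, adjusted p = 0.069) and −1.33 (SE 0.36, adjusted p = 0.066). The groups of these 5 genes did not overlap, and none passed edgeR's adjusted threshold. The sixth, MAD2L1BP, had −0.04 (SE 0.32, adjusted p = 0.94) with overlapping groups.

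Among the other regulators, ERCC6L was called. It encodes PICH, a DNA translocase on the threads that join sister chromatids in anaphase. It was at 34.5, 25.9 and 28.5 CPM in the fresh group and 17.8, 9.4 and 9.78 in the preconditioned group, 2.4-fold lower in the fit (log2 fold change −1.26, SE 0.28, adjusted p = 0.049, edgeR). CSNK1A1, casein kinase 1 alpha, had 678, 534 and 581 CPM against 669, 716 and 722 (log2 fold change 0.23, SE 0.13, adjusted p = 0.25), and its groups overlapped. Of the 14 microtubule-binding and nuclear pore genes, 12 were tested, 10 of them had a negative log2 fold change, and the median was −0.35. None passed edgeR's adjusted threshold, and DESeq2 gave 1, CLASP2, an adjusted p of at most 0.05. In edgeR 4 were lower at an unadjusted p of 0.05 or less (CLASP2, AHCTF1, CKAP5 and RANGAP1), where 15.1% of all tested genes were. CLASP2, which stabilizes microtubules at the kinetochore, had 135, 110.3 and 145 CPM against 103, 88.1 and 81.4 (log2 fold change −0.52, SE 0.14, adjusted p = 0.071), while its paralog CLASP1 had 74.2, 74.9 and 73.1 against 72.7, 90.5 and 80.7 (log2 fold change 0.13, SE 0.11, adjusted p = 0.44). The 7 nucleoporin genes tested under this heading (NUP37, NUP43, NUP85, NUP107, NUP133, SEH1L and AHCTF1) ranged from −0.49 to 0.11.

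The remaining 29 tested genes, which no role list held, had a median of −0.15, and 16 were below 0. KNSTRN, a partner of astrin at the ends of spindle microtubules, was at 15.7, 12.7 and 12.3 CPM in the fresh group and 5.75, 3.36 and 3.95 in the preconditioned group. It was 3.11-fold lower in the fit and had the lowest p value of the kinetochore genes (log2 fold change −1.64, SE 0.26, adjusted p = 0.032, edgeR). SPAG5, which encodes astrin itself, had 55.6, 39.6 and 38.1 CPM against 26.1, 7.23 and 9.19 (log2 fold change −1.65, SE 0.49, adjusted p = 0.083). NEK2, a kinase of the centrosome, had 22.9, 17 and 17.6 against 13, 3.77 and 3.46 (log2 fold change −1.51, SE 0.52, adjusted p = 0.11). Neither passed edgeR's adjusted threshold with all libraries, and DESeq2 called both. PHF2, a histone demethylase, fell by a smaller step with tight replicates, from 32.6, 32.6 and 31.6 CPM to 21.8, 17.6 and 19.7 (log2 fold change −0.71, SE 0.13, adjusted p = 0.039, edgeR).
DCTN3, a subunit of dynactin, was the single kinetochore gene higher at edgeR's adjusted threshold with all libraries. It rose from 60.2, 59.2 and 68.9 CPM to 103, 118 and 95.1, 1.68-fold in the fit (log2 fold change 0.75, SE 0.12, adjusted p = 0.035, edgeR). The other tested dynactin genes with the GO term, DCTN5 and DCTN6, had values of 0.14 (SE 0.13, adjusted p = 0.47) and 0.01 (SE 0.13, adjusted p = 0.95). DCTN1, the large dynactin subunit, lacked the term and had 166, 168 and 161 CPM against 149.8, 144 and 133, with the preconditioned group below the fresh one (log2 fold change −0.21, SE 0.10, adjusted p = 0.19). NUDCD2, which carries a domain of the dynein regulator NudC, had 45, 38.3 and 39.5 CPM against 49.5, 55.3 and 52.8 (log2 fold change 0.36, SE 0.11, adjusted p = 0.092). TEX14, known for intercellular bridges of germ cells, had 2.06, 3.12 and 3.25 against 3.68, 3.61 and 5.5 (log2 fold change 0.60, SE 0.32, adjusted p = 0.24). The preconditioned libraries lay above the fresh ones for both genes, as they did for CFDP1 and DYNLT3. The uncharacterized noncoding LOC127489464 had 0.90 (SE 0.49, adjusted p = 0.25) with overlapping groups.

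**Figure D4:**
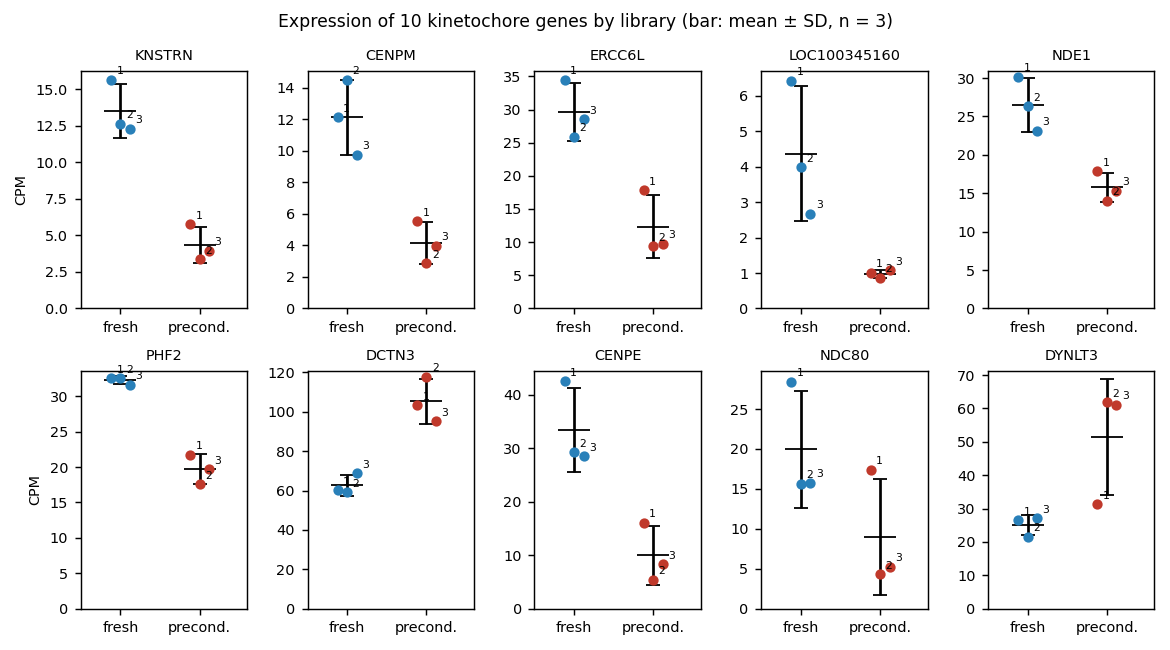
CPM of 10 kinetochore genes in the 3 fresh (blue) and 3 preconditioned (red) libraries, numbered by replicate, with bars at the mean ± SD (n = 3). KNSTRN, CENPM, ERCC6L, LOC100345160, NDE1, PHF2 and CENPE lie lower in each preconditioned library, DCTN3 and DYNLT3 lie higher, and preconditioned replicate 1 of NDC80 overlaps the fresh group.

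Levels per length, in FPKM (counts per length and library total, as deposited), placed genes with other cellular duties at the top. HNRNPU, an RNA-binding protein, was at 201 ± 3.57 in fresh and 122 ± 39.4 in preconditioned libraries (SD, n = 3). ZNF207, a partner of BUB3, was at 104 ± 3.72 in fresh and 69.3 ± 6.15 in preconditioned libraries. SEPTIN7, a cytoskeletal GTPase, was at 98.5 ± 7.04 in fresh and 107 ± 15.8 in preconditioned libraries, and DCTN3 was at 79.4 ± 7.08 in fresh and 118 ± 10.2 in preconditioned libraries. BUB3 came next, at 69.8 ± 4.6 in fresh and 46 ± 14.2 in preconditioned libraries. In the fresh group the levels of ZNF207 and SEPTIN7 differed by less than the larger of their SDs, and in the preconditioned group the same held for each pair of HNRNPU, DCTN3 and SEPTIN7. HNRNPU and ZNF207 lay lower in every preconditioned library, with log2 fold changes of −0.56 (SE 0.20, adjusted p = 0.12) and −0.41 (SE 0.12, adjusted p = 0.075), and neither passed edgeR's adjusted threshold, although ZNF207 did in DESeq2 (adjusted p = 0.038). The median over the 91 tested genes was 6.29 FPKM, and the lowest were LOC100353586, LOC127485521 (a CENPU copy) and TEX14, at 0.337, 0.276 and 0.247. The length behind an FPKM value is not defined in the sources used here, and the values imply 12.1 kb for ZWINT and 0.405 kb for CENPS, so that the order of levels depends on it.

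The 50 tested genes with the cell division term had a median of −0.44, and 41 of them were below 0. The 41 tested genes without it had a median of −0.37, and 31 were below 0. Of the 4 genes called lower, 3 carried the term. The 19 tested genes without a symbol had a median of −0.57, and the 72 with one a median of −0.40.

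Genes for kinetochore proteins outside the GO term were read from the same fit. Of 46 such genes in the role lists, all tested, 35 were below 0 and the median was −0.65. PPP2CB, a catalytic subunit of protein phosphatase 2A, was higher (log2 fold change 0.62, SE 0.10, adjusted p = 0.037, edgeR). Among those with the largest differences, SKA1, a microtubule coupler of the outer kinetochore, had −2.06 (SE 0.69, adjusted p = 0.10). CENPF of the corona had −1.80 (SE 0.42, adjusted p = 0.054), KNL1 had −1.77 (SE 0.42, adjusted p = 0.055) and CENPA, the centromeric histone itself, had −1.56 (SE 0.42, adjusted p = 0.068). The groups of these 4 genes did not overlap, and none passed edgeR's adjusted threshold.

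A further 28 regulators of G2 and mitosis were neither under the GO term nor in the role lists, although some, such as CDC20, also act at kinetochores. All 28 had a negative log2 fold change, with a median of −1.33. Preconditioned replicate 1 was the preconditioned library nearest to the fresh mean for all 28. PLK4, the kinase of centriole duplication, was called (log2 fold change −1.31, SE 0.27, adjusted p = 0.045, edgeR). ESPL1 (separase) and CDC20, the activator of the anaphase-promoting complex (APC/C), had values of −1.14 (SE 0.26, adjusted p = 0.052) and −1.72 (SE 0.40, adjusted p = 0.054). Of 14 tested cohesin and condensin genes, 13 were below 0, with a median of −0.69. NCAPD3 and SMC4, condensin subunits, fell by less than the fold change cutoff (−0.81, SE 0.13, adjusted p = 0.033, and −0.86, SE 0.18, adjusted p = 0.045, edgeR), and NCAPH, another one, had −1.62 (SE 0.37, adjusted p = 0.052). Of the APC/C subunits, 10 of 13 were tested and 6 of these were below 0, with a median of −0.09. ANAPC4 fell (log2 fold change −0.61, SE 0.13, adjusted p = 0.048, edgeR), ANAPC1 had −0.27 (SE 0.10, adjusted p = 0.11), and ANAPC7 had 0.30 (SE 0.12, adjusted p = 0.14). Differences between these lists were not tested.

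**Figure D5:**
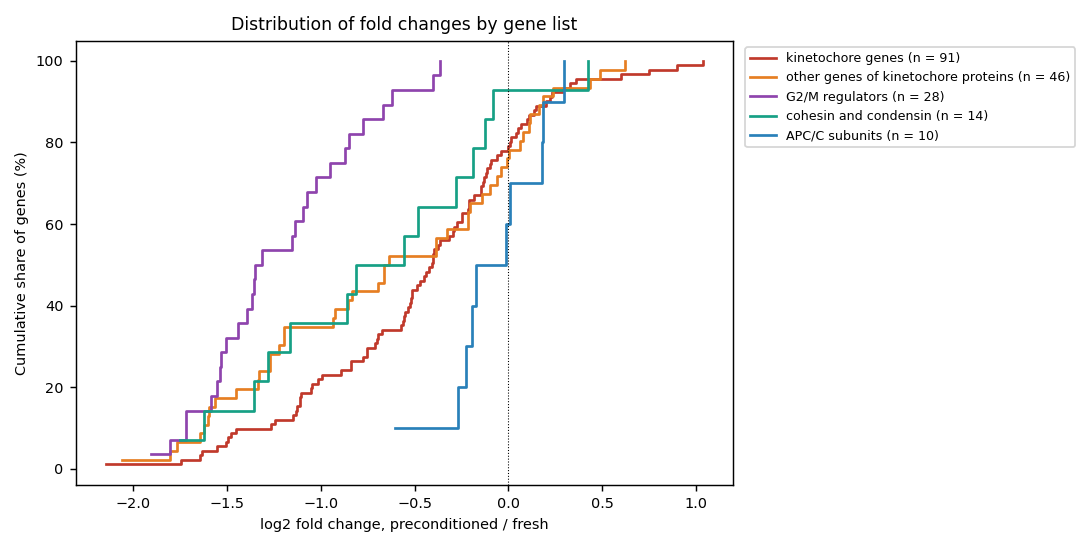
Cumulative share of genes (percent) against log2 fold change (preconditioned against fresh) for the 91 tested kinetochore genes and 4 comparison lists. The G2/M regulators lie furthest to the left with a median of −1.33, the kinetochore genes have a median of −0.41, and the APC/C subunits lie around 0.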

How the data were processed

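Reads were aligned by the authors using hisat2, and the deposited counts per gene come from htseq-count without normalization. The genome build, annotation and strand setting are not given in the sources used here, so that overlapping and antisense genes may share reads. The deposited FPKM are those counts per library total on genes and per length, with 1 length for each gene. Gene Ontology terms and descriptions were used as deposited, and 83 of the 99 kinetochore genes were found in a RefSeq table of rabbit genes, used for names only.

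Counts were filtered with filterByExpr, scaled by TMM and tested in R 4.3.3 with edgeR 4.0.16 (robust quasi-likelihood test, condition as the only factor, Benjamini-Hochberg adjustment over 15029 genes). Standard errors were derived from the F statistic. Within a group, any pair of libraries differed by more than sampling noise (chi-square per degree of freedom 51.5 to 158), so each library was counted as 1 sample, and the spread between libraries rather than depth limits the precision.

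The kinetochore genes, role lists and marker lists were chosen with earlier results of these data known. The text names the kinetochore genes past the adjusted p threshold (0.05), the 6 most positive and 6 most negative, the 5 highest and 3 lowest in FPKM, the NDC80 and chromosomal passenger complexes, the checkpoint kinases, and the 3 genes with the lowest p of each comparison list. Other genes were named after their values were seen. An exact permutation test of the summed CPM had been planned and was not run, since a score over the chosen genes takes no p value. Alternatives were DESeq2 1.42.0, other scalings and filters, a block for the replicate number, each library left out in turn, limma 3.58.1 on log2(FPKM + 1) and log2(FPKM + 0.1), no fold change cutoff, and, chosen after seeing the data, summed copies.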

Additional observations from a re-analysis of the deposited data

How the results depend on the processing

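The median log2 fold change of the kinetochore genes stayed between −0.32 and −0.62 under every alternative, each within 1 SD between preconditioned libraries (0.216) of the −0.41 reported, whereas the calls did not hold. With all libraries, edgeR called 4 kinetochore genes lower and 0 higher, gave 7 an adjusted p of at most 0.05, and called 344 of all genes. DESeq2 gave 13, 1, 24 and 1190 of 22190 genes, with 7 kinetochore genes left without an adjusted p. Library size alone gave 13 at an adjusted p of at most 0.05 and 565 calls over all genes, limma on log2(FPKM + 1) gave 14 at that threshold, and limma on log2(FPKM + 0.1) gave 7 lower, 14 and 590. At the adjusted threshold alone, 6 kinetochore genes were lower in edgeR, 22 in DESeq2, 12 by library size alone and 13 in each limma fit, where 2.2%, 6.5%, 6.97%, 5.86% and 6.15% of all genes were. Without the fold change cutoff, 1 was higher and 763 of all genes were called. Leaving out 1 library gave 0 to 25 lower, 0 to 1 higher, 0 to 44 at the adjusted threshold alone and 14 to 1546 over all genes by both cutoffs. The largest counts came without preconditioned replicate 1, and the cause was not tested. In that fit 41 of the 44 were lower, where 13.9% of all tested genes were at the adjusted threshold alone. Without each of the other 5 libraries, 0 were called by edgeR. In either direction, 20 to 27 kinetochore genes then had an unadjusted p of at most 0.05, beside 34 with all libraries. With all libraries, 15.1% of all tested genes were lower and 15.5% higher at that p. Those shares were not taken with a library left out. Library size alone moved the median over all genes to −0.16, so that the kinetochore median of −0.58 lay −0.42 from it, and put 25.1% of the calls over all genes on the higher side in place of 47.4%. That share was 27.2% and 23.9% under the 2 limma fits. Summing copies left 3 genes called lower, CENPM, ERCC6L and KNSTRN.

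With the replicate number as a block, edgeR called 0 kinetochore genes lower, 0 at an adjusted p of at most 0.05 alone and 30 of all genes. In either direction, 39 kinetochore genes had an unadjusted p of at most 0.05, and the share of all genes at that p was not taken. Libraries of the same number did not deviate together (correlations −0.067, −0.077 and −0.118), and 0 of 3 preconditioned libraries correlated best with its own number. With 3 libraries in each group, these correlations cannot show whether libraries of the same number share an animal or culture, and the sources do not say. For the 26 named kinetochore genes there were 382 values under alternatives. Of these, 311 kept their direction and side of the threshold, 42 lost the threshold, 26 gained it and 3 changed sign. Those were INCENP without fresh replicate 3 (0.066; −0.29 to 0.066 over the libraries left out), and LOC127485521 without preconditioned replicate 1 (0.23) and replicate 3 (0.31; −3.16 to 0.31 over the libraries left out).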

Other observations

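Of the 8 kinetochore genes below the filter on low counts, DYNC1I1, a dynein intermediate chain, was the highest, at 0.232, 0.197 and 0.520 CPM in the fresh group and 0.335, 0.320 and 0.263 in the preconditioned group, and 7 had no symbol. LOC103347031 and LOC103350012, described as a Nup133 and a SEH1-like protein, were at 0 in 5 of the 6 libraries each.

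The rows described as centromere protein U did not keep their shares of the summed CPM. LOC127482610 held 30.5, 35.9 and 28.5% of the sum in the fresh libraries and 35.7, 28.6 and 12.8% in the preconditioned libraries. LOC127489946 held 7.18, 5.73 and 4.80% in the fresh libraries and 7.23, 8.43 and 19.7% in the preconditioned ones. LOC127485521 held at most 2.11% in every library but preconditioned replicate 2, where it held 7.10%. For shugoshin 2, LOC100345160 held 56.6, 50.2 and 45.6% in the fresh libraries and 22.9, 71.1 and 44.6% in the preconditioned ones, so that its share ranged more widely in the preconditioned group. MIS18A, a factor of CENP-A deposition outside the GO term, was at 10.9, 9.03 and 9.52 CPM in the fresh group, at 12.3 and 4.0 in preconditioned replicates 1 and 2, and at 0 in replicate 3. The source of these differences was not tested.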
